A study of Daphnia magna with 3 samples.

Results

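In the water flea Daphnia magna, 4 transcripts met a rule for RNA shared by head and antenna, out of 33957 transcripts in the table and 4596 with at least 100 reads. The transcripts were selected on CPM, the reads of a transcript per 1000000 reads of its library. The rule took the median CPM of the 3 replicates in each of 7 body parts and turned the 7 medians into shares of their sum. A transcript was kept if head and antenna had the 2 highest shares and at least 0.5 together, and if no share reached 0.4. Its egg share also had to be at least 0.01, unless head and antenna together held at least 0.6. The transcripts were chosen by these values, so the height of head and antenna over the other body parts is described here and not tested.

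The animals carried the genotype IL-M1-8 and were kept at 20 °C with 20 mL of medium per adult and a daily feed of green algae at 100000 cells per mL. Each of the 3 replicates, numbered 3, 4 and 7, was a pool of 7 barcoded libraries of cDNA read on an Oxford Nanopore instrument, from head, antenna, carapace, carcass (also called body), hemocytes, gut and eggs. Whether 1 pool held the same animals throughout, and whether pools stood for separate cultures, is not stated, so p-values measure the spread between these libraries, which may be technical.

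The head of Daphnia carries the compound eye, the brain and the small chemosensory first antennae, and the large second antennae are the swimming limbs. Strong muscles drive the second antennae, and both body parts are covered by cuticle. The labels do not say which antennae were taken. None of the identifiers could be matched to a gene name (0 of 33957), so no function is given for any of the 4 transcripts, and the labels of the body parts could not be checked against marker genes.

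Libraries held between 4161 reads (gut of replicate 4) and 1105094 reads (antenna of replicate 7), and 1 read was worth 240 CPM in the first and 0.905 CPM in the second. The libraries of some body parts were unlike each other. Across the transcripts with at least 100 reads, the head of replicate 3 had its highest Spearman correlation with hemocytes of replicate 4 (0.74), against 0.40 and 0.52 with the other heads. The gut of replicate 7 was closest to eggs of the same replicate (0.71). Gut libraries of replicates 3 and 4 were also nearest to other body parts (0.61 and 0.33). No hemocyte library had its best match among hemocytes. For replicates 3 and 4 the best match was the head of replicate 3 (0.70 and 0.74). Hemocytes of replicate 7 correlated most with a carapace library, from replicate 3 (0.71). Among themselves, hemocyte libraries had correlations of 0.45 to 0.66. The comparisons with hemocytes below rest on these libraries. In the head of replicate 4, 10 transcripts took 73.1% of the reads. The factor that scales libraries for such unequal composition (TMM, the trimmed mean of M values) was 0.251 there and 1.30 in the head of replicate 3.

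The 4 transcripts came from 4 contigs and had 1204 reads between them. The first was maker-falcon_000047F-snap-gene-4.89-mRNA-2, with 669 bases and 679 reads. The second was augustus_masked-falcon_000016F-processed-gene-19.56-mRNA-1, with 3016 bases and 253 reads. The third was maker-falcon_000001F-augustus-gene-37.62-mRNA-1, with 914 bases and 150 reads, and the fourth was maker-falcon_000036F-augustus-gene-1.105-mRNA-1, with 7533 bases and 122 reads. They are called below by their contigs: 000047F, 000016F, 000001F and 000036F. Reads of them were found in 20, 17, 15 and 18 of the 21 libraries in that order, so none was confined to head and antenna. In such bulk libraries, fewer cells of a type and less RNA per cell cannot be told apart.

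Per kilobase of transcript, their mean CPM over the 6 head and antenna libraries was 459 for 000047F, 48.8 for 000001F, 27.5 for 000016F and 4.97 for 000036F. On this scale the shortest of the 4 had the highest value and the longest the lowest. Before the division by length the means were 307 CPM for 000047F, 82.9 for 000016F, 44.6 for 000001F and 37.4 for 000036F. The order of 000001F and 000016F thus came from the division. Whether reads rise with transcript length in these libraries was not tested. Their median length was 1965 bases, against 2797 bases over the 4596 transcripts, and 2 of the 4 lengths were multiples of 3, against 41.1% of the 4596. The identifiers of 3 of the 4 began with maker, as did 74.7% of the 4596.

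On library totals, few transcripts had head and antenna on top. Of the 4596, 42 did, and 35 of these had at least 0.5 of their sum in the pair. The cap on a single share removed 27 of the 35, of which 15 had a head share and 13 an antenna share of 0.4 or more, 1 of them in both. The condition on eggs removed 4 of the remaining 8. Eggs had the highest share in 2323 transcripts, carapace in 612, antenna in 440 and head in 91. The 4 transcripts had median shares of 25.5% in head, 37.7% in antenna and 2.33% in eggs, against 6.24% in head, 9.99% in antenna and 23.4% in eggs over all 4596. These background values depend on the scaling. With TMM factors 331 transcripts had head and antenna on top, and head had the highest share in 499. The medians over all 4596 were then 13.3% in head and 14.1% in antenna.

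**Figure D1:**
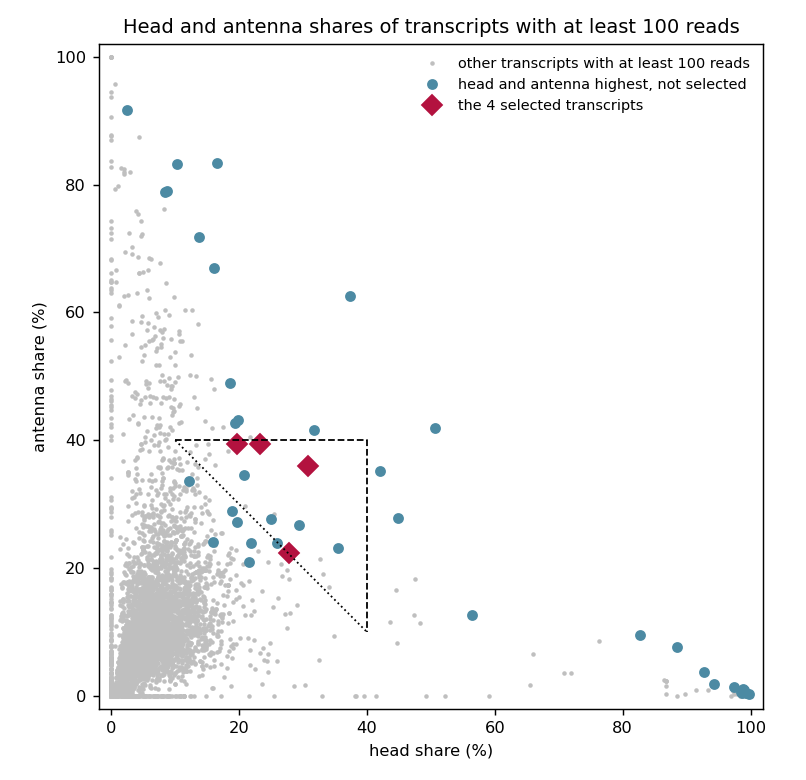
Head share (x axis, %) against antenna share (y axis, %) for transcripts with at least 100 reads, where a share is a body part's median CPM over the sum of the 7 medians. Dashed lines mark the cap of 40% and the dotted line a pair share of 50%. The 4 selected transcripts (red diamonds) lie inside the triangle, 2 of them just under the cap on antenna, and most other transcripts with head and antenna on top (blue) lie outside it.

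Members lay close to several limits of the rule. The transcripts named beyond a limit are the nearest of those that met every other condition. The 000016F transcript had the highest single share, 39.5% in antenna, and the nearest transcript beyond the cap was maker-falcon_000012F-augustus-gene-8.61-mRNA-1 at 41.6%. The 000036F transcript had the lowest pair share, 50.02%, and the nearest below the limit was maker-falcon_000009F-augustus-gene-3.38-mRNA-2 with 47.91%. The 000036F transcript also had the fewest reads, 122, while maker-falcon_000086F-augustus-gene-1.77-mRNA-2 met every other condition with 85. The 000047F transcript had an egg share of 1.25%, and maker-falcon_000015F-augustus-gene-18.0-mRNA-1 missed with 0.867% and a pair share of 58.64%. The 000001F transcript had an egg share of 0 and entered with a pair share of 66.79%, above the 0.6 asked for in that case. In 000036F the second of the pair led the third body part by 3.56 percentage points, and in snap_masked-falcon_000362F-processed-gene-0.3-mRNA-1 the difference was -0.907 points. These values are a description of where the limits fell.

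The 000047F transcript was the most counted of the 4. It had 276, 44.1 and 179 CPM in the heads of replicates 3, 4 and 7 (34, 11 and 31 reads), and 773, 359 and 211 CPM in the antennae (115, 21 and 233 reads). The carapace had 105, 88.3 and 9.42 CPM, the carcass 263, 67.8 and 132 CPM, and hemocytes 200, 78.3 and 103 CPM. The gut had 186 CPM in replicate 3, 0 reads in replicate 4 and 37.9 CPM in replicate 7, and eggs had 11.4, 6.28 and 15.3 CPM. All 3 antennae were above all carapace, hemocyte, gut and egg libraries, but the head of replicate 4 was lower than every hemocyte and carcass library. Counting error does not span the spread between antennae: the exact Poisson 95% interval was 639 to 928 CPM in replicate 3 and 185 to 240 CPM in replicate 7. Replicate 3 had the highest value of the 3 in 6 of the 7 body parts, all but eggs.

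By median CPM its order was antenna (359), head (179), carcass (132), hemocytes (103), carapace (88.3), gut (37.9) and eggs (11.4). The ranges of neighbours in this order overlapped at every step. Head averaged 166 ± 116 CPM, antenna 448 ± 292 CPM (SD, n = 3 each) and the carcass 154 ± 99.6 CPM (SD, n = 3), so head and carcass differed by less than their spread. When the reads of the 3 replicates were summed, the head (139 CPM) was below the carcass (159 CPM).

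The 000016F transcript had 64.9, 28.1 and 63.4 CPM in the heads of replicates 3, 4 and 7 (8, 7 and 11 reads) and 148, 85.4 and 108 CPM in the antennae (22, 5 and 119 reads). The carcass had 38.1, 56.5 and 45.6 CPM, the carapace 40.2, 12.6 and 0 CPM, and eggs 5.69, 25.1 and 12.3 CPM. Hemocytes had no read in replicates 3 and 4 and 23 reads, or 85.0 CPM, in replicate 7. The median therefore put hemocytes at 0, although their library of replicate 7 was above all 3 heads. The 2 empty hemocyte libraries allow up to 50 and 29.3 CPM, the worth of 3 reads, which covers counting error only. The gut values of 31.1, 0 and 37.9 CPM came from 1, 0 and 1 reads.

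All 3 antennae of 000016F were above all 3 heads, all carcass libraries and, by a margin of 85.4 against 85.0 CPM, the highest hemocyte library. Its order by median was antenna, head, carcass, gut, carapace, eggs and hemocytes. Antenna did not overlap head. Carcass did not overlap the gut, but by a margin of 38.1 against 37.9 CPM, and the latter was 1 read in replicate 7. The empty gut library of replicate 4 allows up to 721 CPM, the worth of 3 reads, so this separation is not read as a difference. The other neighbours overlapped. Over the 4596 transcripts, all 3 antennae were above all carcass libraries in 5.37% and above all hemocyte libraries in 4.63%. How often antenna lies above head, or carcass above gut, was not counted, so nothing is read from those separations.

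For 000001F the heads had 8.11, 52.1 and 51.9 CPM (1, 13 and 9 reads) and the antennae 60.5, 34.2 and 60.6 CPM (9, 2 and 67 reads). The carcass had 34.3, 22.6 and 31.2 CPM, hemocytes 16.7, 0 and 55.4 CPM, and the carapace 8.04, 12.6 and 0 CPM. A single egg read, 3.07 CPM, came from replicate 7, and the 2 gut reads, 62.1 CPM, from replicate 3. The head of replicate 3 was thus lower than every carcass library, and the other heads were higher than every carcass library. The gut of replicate 3, with its 2 reads, was the highest of the 21 values. The ranges of all neighbours in the order of medians overlapped.

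The 000036F transcript had 48.7, 4.01 and 46.1 CPM in the heads (6, 1 and 8 reads) and 20.2, 68.3 and 37.1 CPM in the antennae (3, 4 and 41 reads). The carapace had 24.1, 42.0 and 18.8 CPM, the carcass 19.1, 33.9 and 31.2 CPM, and hemocytes 16.7, 48.9 and 22.2 CPM. The gut had 31.1, 0 and 0 CPM, from 1 read, and eggs had 5.69, 0 and 18.4 CPM. In this transcript head was the higher of the pair, with a median of 46.1 CPM, against 37.1 CPM in antenna, but the means ran the other way: 32.9 ± 25.1 CPM in head and 41.9 ± 24.4 CPM in antenna (SD, n = 3 each). The head of replicate 4 was lower than every carapace, carcass and hemocyte library, and the ranges of all neighbours in the order of medians overlapped. Over the 6 head and antenna libraries its mean was 37.4 ± 22.7 CPM (SD, n = 6), and over the other 15 it was 20.8 ± 15.1 CPM (SD, n = 15), the smallest ratio of the 4 at 1.80. The largest ratio was 3.53, in 000047F, with 307 ± 251 CPM (SD, n = 6) in head and antenna and 87.0 ± 80.2 CPM (SD, n = 15) elsewhere.

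**Figure D2:**
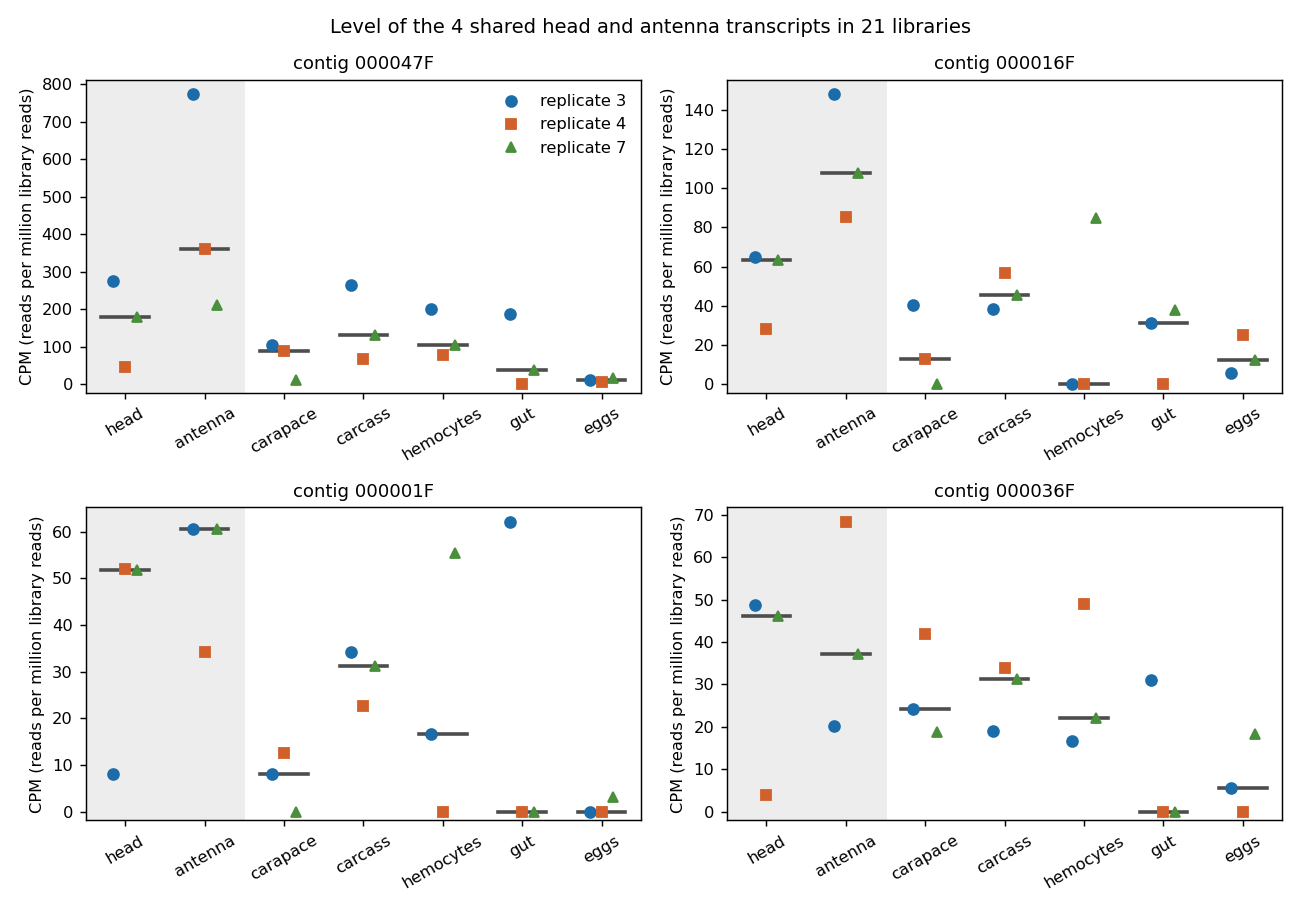
CPM (y axis, linear, a scale for each panel) of the 4 transcripts in head and antenna (shaded) and the other 5 body parts (x axis), with 1 point per library, shaped by replicate, and a bar at the median of the 3. No transcript has all 6 head and antenna points above the rest: in 000001F the gut point of replicate 3, at 62.1 CPM, is the highest of all.

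No transcript among the 4 had all 6 head and antenna libraries above the other 15, and across the 4596 transcripts 0.0% did. All 3 antennae were above all 3 egg libraries in 4 of the 4 (15.3% of the 4596), and above all carapace libraries in 3 (6.51% of the 4596). They were above all hemocyte libraries in 2 (4.63%), all gut libraries in 2 (10.8%) and all carcass libraries in 1 (5.37%). All 3 heads were above all eggs in 3 of the 4 (9.20% of the 4596). They were above all carapace libraries in 0 of the 4 (1.76%), and likewise all carcass libraries (0.653%), hemocyte libraries (0.805%) and gut libraries (5.44%). The rule chose for these differences, so nothing is read from the counts.

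Within single replicates the pair was on top less often than in the medians. Head and antenna were the 2 highest body parts in replicates 3 and 7 for 000047F, in replicate 3 for 000016F, in replicate 4 for 000001F and in replicate 7 for 000036F. The pair share of 000047F was 57.8%, 62.6% and 56.7% in replicates 3, 4 and 7. For 000016F it was 64.9%, 54.6% and 48.6%, for 000001F 36.2%, 71.0% and 55.7%, and for 000036F 41.6%, 36.7% and 47.9%. The last transcript was below 50% in each replicate and reached 50.02% only after medians were taken.

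The third body part was the carcass in all 4, with 14.5% to 18.7% of the sum, but with TMM factors (described next) it was hemocytes in 000047F and carapace in 000036F. The carapace had 4.63% to 14.5%, hemocytes 0% to 13.3% and gut 0% to 11.4%. The gut shares rest on few reads: the library of replicate 4 held none of the 4 transcripts, and 1 read there was worth 240 CPM. A gut share of 0% is thus not read as absence. Eggs had 25 reads of the 4 transcripts in 3 libraries, and the gut had 12, but its libraries were much smaller. They held 32202, 4161 and 26378 reads in replicates 3, 4 and 7, against 175876, 159154 and 326037 in eggs. Summed over the 4 transcripts, the gut had 311, 0 and 75.8 CPM and eggs had 22.7, 31.4 and 49.1 CPM.

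The selection depended on how libraries were scaled. With TMM factors, the shares of head and antenna were 20.4% and 44.6% in 000047F, 30.8% and 47.7% in 000016F, 46.8% and 32.0% in 000001F, and 19.8% and 31.7% in 000036F. Head and antenna were the 2 highest body parts of all 4 on this scale too, but 3 of them passed the cap of 0.4 and only 000036F met the whole rule. The higher of the pair was antenna in 000036F and head in 000001F, the opposite of the order on library totals. On the TMM scale 331 of the 4596 transcripts had head and antenna on top and 79 met the rule, with a median pair share of 55.6%, against 40.3% for the same 79 on library totals.

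**Figure D3:**
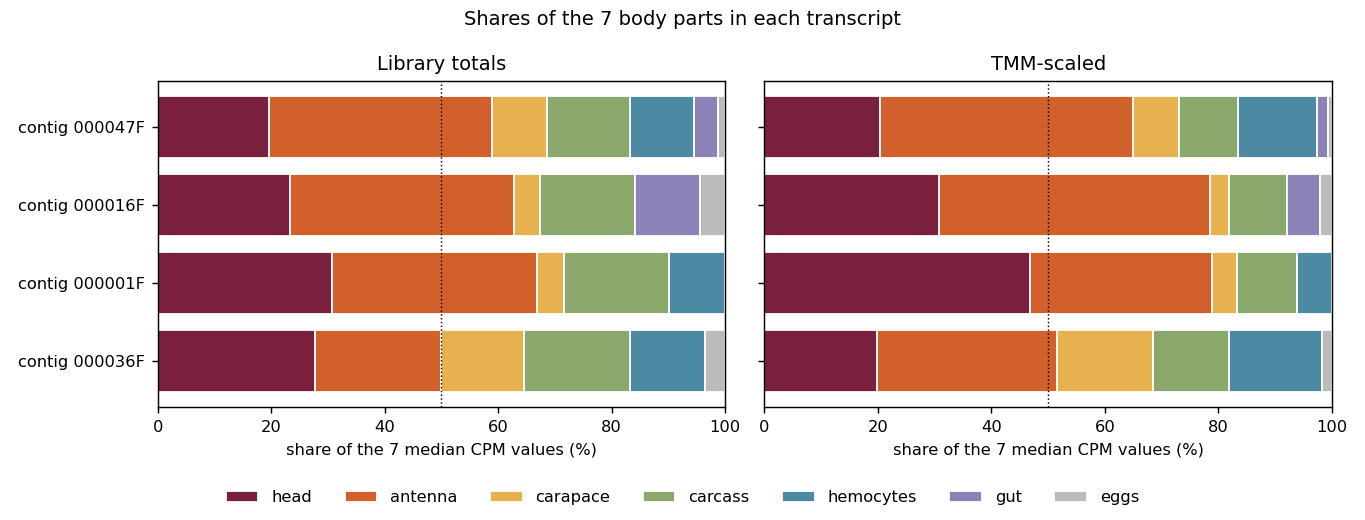
Share of each body part in the sum of the 7 median CPM values (x axis, %), for the 4 transcripts (rows), from library totals (left) and with TMM factors (right). The dotted line marks 50%. The pair, drawn first, reaches 50.02% to 66.79% on the left. On the right, antenna passes 40% in 000047F and 000016F, and head does so in 000001F.

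Other ways to take the medians also changed which transcripts qualified. The mean of the replicates gave 3 transcripts, 1 of them among the 4. Leaving out replicate 3, 4 or 7 gave 8, 5 and 0 transcripts, of which 1, 2 and 0 were among the 4. The RPKM values as deposited gave 6 transcripts, none of them among the 4. Leaving out only the head of replicate 7 gave 7 transcripts and again none of the 4. Leaving out only the head of replicate 3 gave 7, 1 of them among the 4 (000001F), and leaving out only the head of replicate 4 gave 14, 3 of them among the 4. Leaving out only the gut of replicate 4 gave 2, both among the 4. Over the 21 ways to leave out 1 library, 000001F stayed in 16, 000016F in 13, 000047F in 11 and 000036F in 9. With the reads of the replicates summed, no transcript met the rule.

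**Figure D4:**
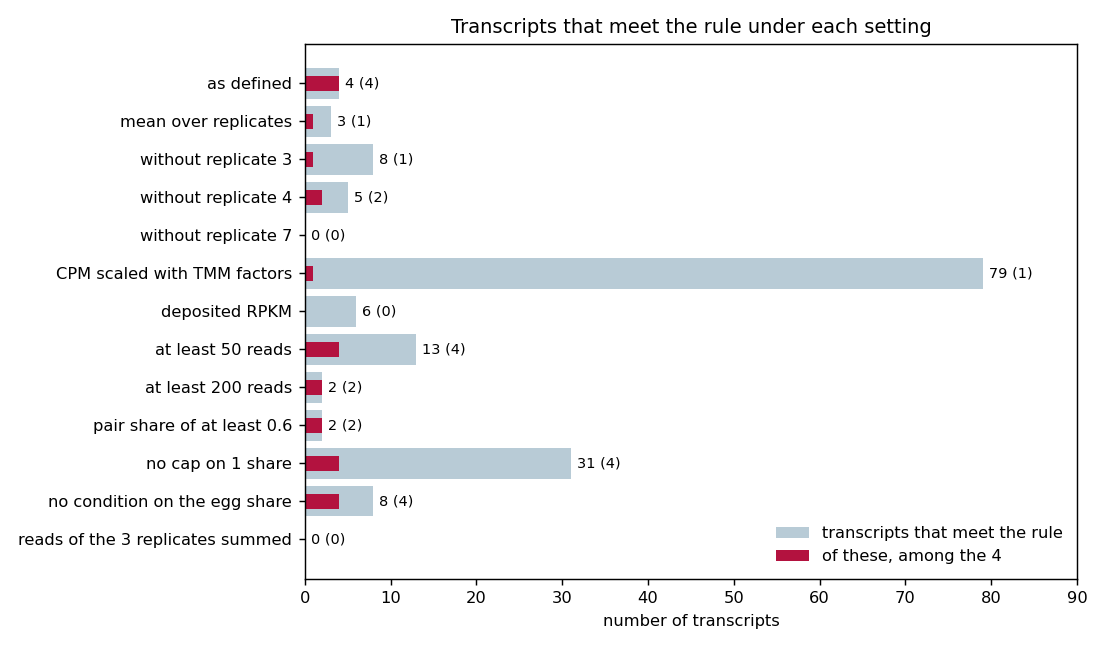
Number of transcripts that met the rule (x axis; wide pale bars) and of those among the 4 (narrow red bars) under each setting (rows). Each row prints the first number and, in brackets, the second. TMM scaling gives 79 transcripts with 1 of the 4, and summing reads or leaving out replicate 7 gives 0.

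Head and antenna were compared in a model of all libraries. The rule used both shares, and its cap removed transcripts with a large share in either, so the difference between head and antenna is a description with no test. The filter on low counts kept 4035 transcripts and 2 of the 4, 000047F and 000016F. The log2 fold change of head over antenna was -1.20 ± 0.69 (SE) for 000047F and -0.76 ± 0.78 (SE) for 000016F. The model called 1.21% of the 4035 transcripts between head and antenna and neither of the 2, and nothing is read from this.

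The order of the other body parts among themselves does not enter the rule, and 3 comparisons among them were tested. The rule did hold each of them below head and antenna, so a high share in any of them was selected against. This limits the differences that the 2 transcripts could show, and a lack of calls is not read as likeness. Carapace against carcass called 6.94% of the 4035 transcripts and neither of the 2, with log2 fold changes of -0.81 ± 0.71 (SE) for 000047F (edgeR, adjusted p = 0.554) and -1.0 ± 0.94 (SE) for 000016F (edgeR, adjusted p = 0.585). Carapace against hemocytes called 0% by edgeR, and it called 16 of 3171 transcripts by DESeq2 and 1 of 4035 by limma voom. At an unadjusted p under 0.05 there were 444 transcripts by edgeR, 429 by DESeq2 and 527 by limma voom. The 2 estimates were -0.62 ± 0.74 (SE) for 000047F and -1.19 ± 0.97 (SE) for 000016F (edgeR, adjusted p = 0.835 and 0.709). Hemocytes against carcass called 0.223%, with -0.19 ± 0.70 (SE) for 000047F and 0.19 ± 0.80 (SE) for 000016F (edgeR, adjusted p = 0.997 for both). In these 3 comparisons neither transcript reached an unadjusted p under 0.05 by edgeR, and neither was called by DESeq2 or limma voom.

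One library set the hemocyte estimates of 000016F. Without hemocytes of replicate 7, which held all 23 of its hemocyte reads, its log2 fold change was 5.07 for carapace against hemocytes and -6.10 for hemocytes against carcass (edgeR, adjusted p = 0.299 and 0.408). A fold against a group with no read depends on the prior count of the fit and is no bound.

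**Figure D5:**
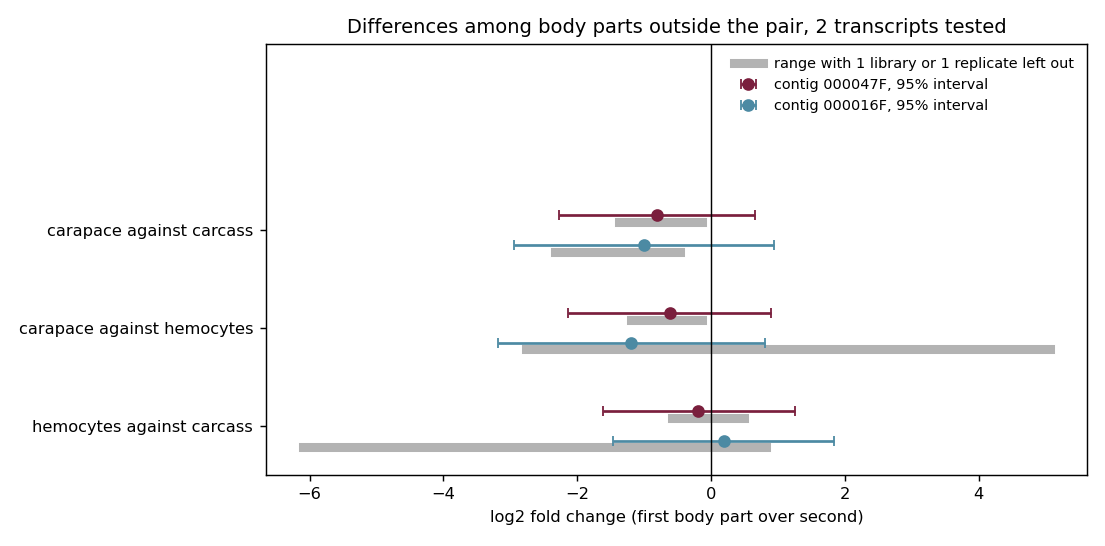
Log2 fold change of the first body part over the second (x axis) in 3 comparisons (rows) for the 2 transcripts tested, with 95% intervals, and grey bars for the range of estimates with 1 library or 1 replicate left out. All 6 intervals include 0, and the grey bars of 000016F reach 5.07 and -6.10 in the comparisons with hemocytes.

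The 2 transcripts left out by the filter were also fitted without it, over 19682 transcripts. As a description, the log2 fold change of head over antenna was 0.11 ± 0.70 (SE) for 000001F and -0.24 ± 0.75 (SE) for 000036F. Carapace against carcass called 1.83% of the 19682 and neither of the 2, with -1.82 ± 0.91 (SE) for 000001F (edgeR, unadjusted p = 0.0468, adjusted p = 0.502) and 0.09 ± 0.75 (SE) for 000036F (edgeR, adjusted p = 1). Carapace against hemocytes called 0.234% and neither of the 2, with -2.02 ± 0.94 (SE) for 000001F (edgeR, unadjusted p = 0.0326, adjusted p = 0.796) and 0.11 ± 0.81 (SE) for 000036F (edgeR, adjusted p = 1). The carapace libraries held 4 reads of 000001F. In both comparisons with the carapace the estimate of 000036F was smaller than its SE, so no contrast between the 2 transcripts is read. Hemocytes against carcass called 0.574% and neither, with 0.20 ± 0.74 (SE) for 000001F and -0.01 ± 0.82 (SE) for 000036F (edgeR, adjusted p = 1 for both).

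The replicate pools were compared with body part in the model, a difference that the rule does not use. The joint test called 0.768% of the 4035 transcripts and neither of the 2. The 000047F transcript had an unadjusted p of 0.0335 and an adjusted p of 0.285 (edgeR), with log2 fold changes of -1.20 for replicate 4 and -0.82 for replicate 7 against replicate 3. For 000016F these were -0.04 and 0.56 (edgeR, adjusted p = 0.837). DESeq2 called many more transcripts, 402 of 3956, against 31 of 4035 by edgeR. By DESeq2, 000047F had an unadjusted p of 0.00972 and an adjusted p of 0.078. The adjusted p of 000016F by DESeq2 was 0.845. Without the filter the joint test called 0.467% of the 19682 transcripts and neither 000001F nor 000036F (edgeR, adjusted p = 0.983 for both).

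The 4 transcripts that missed only the egg condition had, by that choice, head and antenna on top in their medians, but not always in their means. The most counted of them, maker-falcon_000015F-augustus-gene-18.0-mRNA-1, had 545 reads, with 297 ± 239 CPM in head and 172 ± 64.9 CPM in antenna (SD, n = 3 each). The next highest means were 156 ± 76.7 CPM in hemocytes and 135 ± 94.5 CPM in carcass, and eggs had 7.06 ± 1.88 CPM (SD, n = 3 each). The second, maker-falcon_000026F-snap-gene-12.30-mRNA-4, had 339 reads and none in eggs, with 140 ± 108 CPM in head and 164 ± 113 CPM in antenna (SD, n = 3 each). Its highest mean was in the gut, at 173 ± 267 CPM from 3 reads, and hemocytes had 94.1 ± 14.7 CPM and carcass 87.9 ± 39.6 CPM (SD, n = 3 each). In both, the mean in head exceeded those in hemocytes and carcass by less than the SD between heads. In the less counted maker-falcon_000002F-augustus-gene-9.60-mRNA-1, head had a mean of 28.3 ± 14.6 CPM, against 35.2 ± 18.6 CPM in carapace (SD, n = 3 each).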

How the data were processed

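The authors deposited 1 table with, for 21 libraries (7 body parts in 3 replicates) and 33957 transcripts, a read count, an RPKM and a transcript length. SAMtools and DESeq2 are named in the submitters' processing notes. For aligner, build and annotation, the entry is: not given in the sources used here. The deposited counts are whole reads and were used unchanged. The RPKM values deposited by the authors divide by the reads of a whole pool, so they scale with library depth and served only as an alternative. The members and tests were chosen with earlier results of these data known. No sequence is shown because the sources used here hold none for these identifiers.

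Members were found on CPM from library totals. Intervals on single libraries are exact Poisson 95% intervals and cover counting error only, as does the limit of 3 reads for a count of 0. Tests used edgeR 4.0.16 in R 4.3.3: filterByExpr (minimum count 10), TMM factors, a quasi-likelihood fit with 1 mean per body part over all 21 libraries, two-sided tests and Benjamini-Hochberg adjustment over 4035 transcripts, threshold 0.05. Head against antenna was fitted likewise but is given as a description, since the rule used both shares. The SE of an edgeR log2 fold change was calculated back from the test, as its absolute value over the square root of the F value. The 95% intervals of fold changes are the estimate plus or minus this SE times a t quantile. The code was tested on simulated data. Alternatives were RLE factors, no filter, DESeq2 1.42.0, limma 3.58.1 (voom), the replicate as a block, and libraries or replicates left out. The transcripts named were the most counted members, the largest differences and those nearest each limit; those missing only the egg condition were named after their values were seen.

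Libraries with 1 replicate number share a barcoded pool per the labels and are paired by it. Deviations from body part means correlated above 0.1 in 28 of 63 same-number pairs (median over all pairs 0.0764). The main tests between body parts did not use this pairing. With the replicate as a block, carapace against carcass gave -0.64 for 000047F and -0.93 for 000016F (log2 fold change). Carapace against hemocytes gave -0.59 and -0.94, and hemocytes against carcass -0.05 and 0.02. Replicate libraries differed by more than sampling noise (chi-square per degree of freedom of at least 3.62 in each of 21 pairs).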

Additional observations from a re-analysis of the deposited data

How the results depend on the processing

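Over the 3 comparisons outside the pair and that of the pools, 115 combinations with an alternative were run, the replicate block among them. They gave an adjusted p for 000047F and 000016F in all 115, for 000001F in 44 and for 000036F in 4, and called none of these (0 members with the block). The number of transcripts that met the rule was 4 as defined, 79 with TMM factors, 6 with the deposited RPKM (0 of the 4), 13 from 50 reads, 2 from 200 reads, 2 with a pair share of at least 0.6, 31 with no cap, 8 with no egg condition and, in an alternative chosen after seeing the data, 0 with summed reads; with 1 library or replicate left out it ran from 0 to 14. Single libraries were left out of the rule after seeing the data, with the minimum of reads still counted over all 21 libraries. For hemocytes against carcass, the log2 fold change of 000016F was 0.19, but -1.20 by limma voom and -0.31 with library totals alone (chosen after seeing the data). With libraries or replicates left out it ran from -6.10 to 0.82, that of 000047F from -0.58 to 0.50, and that of 000016F for carapace against hemocytes from -2.77 to 5.07. The cause was not tested beyond the library named above.

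Calls over all transcripts moved more. Head against antenna called 49, against 51 with the replicate block, 112 by DESeq2, 311 with no filter, 76 with library totals alone, 31 by limma voom, and 7 to 125 with libraries or replicates left out. Carapace against carcass called 280, against 371 with the replicate block, 372 by DESeq2, 360 with no filter, 342 by limma voom, 133 with library totals alone and 0 to 355 with libraries or replicates left out (1 without the carcass of replicate 4). Carapace against hemocytes called 0, against 16 by DESeq2, 1 by limma voom, 46 with no filter and 0 to 2 with libraries left out. Hemocytes against carcass called 9, against 56 by DESeq2, 113 with no filter, 5 with the replicate block, 1 with library totals alone, 0 by limma voom and 0 to 88 with libraries left out. The pools differed in 31, against 402 by DESeq2, 92 with no filter, 0 with library totals alone and 0 to 56 with libraries left out. Of the 84 member values, 14 had 0 reads, 22 had 1 to 3 and 27 had at least 10, and this depth limits the precision of most levels.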
